A study of Mus musculus with 21 samples.

Results

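The genes described here are 10 that B cells and their antibody-secreting descendants, the plasma cells, use: the heavy-chain constant genes Ighm, Ighg3, Ighg1, Ighg2b, Ighg2c and Igha, the kappa light-chain constant gene Igkc, the joining-chain gene Jchain, and Cd79a and Cd79b. They were chosen by name, and all 10 were found in each of the 3 expression tables, which list 54532 genes for the CCl4 and oil livers, 54532 for the hepatocytes and 34280 for the thioacetamide (TAA) livers. The study asks how STING and the NLRP3 inflammasome act in liver fibrosis, and RNA-seq was made from total RNA of 21 mouse samples in 7 groups of 3. The CCl4 table holds livers labelled Sting knockout given intraperitoneal CCl4, wild-type livers given CCl4 and wild-type livers given oil, for 6 weeks by the sample labels. The design text gives 8 weeks for both CCl4 groups, and no duration from it was recorded for oil. The TAA table holds livers with a hepatocyte-specific Nlrp3 deletion and wild-type livers, both after 8 weeks of TAA. The hepatocyte table holds primary wild-type hepatocytes given LPS (1 µg/mL, 6 h) and nigericin (10 µM, 30 min), with or without the NLRP3 inhibitor MCC950 (10 µM) from 2 h before. The knockout allele, the driver of the deletion, strain, sex, age and any pooling are not given in the sources used here. No oil-treated knockout and no saline-treated TAA control were analysed here, and nothing states that samples of a group were separate animals, so p-values measure the spread between these samples.

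An antibody is built from paired heavy and light chains, and the constant gene joined to the rearranged variable segment decides its class. Naive B cells use Ighm (IgM) and Ighd (IgD), and after activation they switch to a downstream gene for IgG, IgE or IgA. CD79A and CD79B form the signalling part of the B cell receptor on B cells and are low in plasma cells, whereas plasma cells make very large amounts of heavy- and light-chain RNA. JCHAIN links IgM and IgA into polymers, and the polymeric immunoglobulin receptor, encoded by Pigr, carries them across epithelia, including that of bile ducts.

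The constant genes lie on the reverse strand of chromosome 12 (mm10) in the order Ighm (113418558 to 113422730), Ighg3 (113356224 to 113361232), Ighg1 (113325240 to 113330523), Ighg2b (113302965 to 113307933), Ighg2c (113285325 to 113288932) and Igha (113254830 to 113260236). Igkc lies on chromosome 6 (70726435 to 70726966, forward strand), Jchain on chromosome 5 (88519809 to 88527891, reverse), Cd79a on chromosome 7 (24897381 to 24902197, forward) and Cd79b on chromosome 11 (106311341 to 106314762, reverse). The 4 IgG genes differ most visibly in their hinge exon, exon 2, which codes for the flexible stretch between the arms and the stem of the antibody. The hinge exons of the GENCODE M21 transcripts (mm10, reverse strand) are shown 5′ to 3′ because the subclasses are counted separately below, with the in-frame cysteine codons, where heavy chains can be bridged, in capitals.
Ighg3 hinge, chr12:113360529-113360576: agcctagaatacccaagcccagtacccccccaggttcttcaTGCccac
Ighg1 hinge, chr12:113329844-113329882: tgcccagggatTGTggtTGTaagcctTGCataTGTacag
Ighg2b hinge, chr12:113307261-113307326: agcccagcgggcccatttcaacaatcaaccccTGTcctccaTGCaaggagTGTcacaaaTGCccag
Ighg2c hinge, chr12:113288263-113288325: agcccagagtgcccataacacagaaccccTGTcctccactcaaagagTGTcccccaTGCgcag
They hold 1 cysteine codon in Ighg3, 4 in Ighg1, 4 in Ighg2b and 3 in Ighg2c.

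Outside the hinge the subclasses are similar enough for short reads to be shared. Of the 6 pairs, Ighg2b and Ighg2c were the closest: 94.2% of the bases of exon 3 were identical, and 5.85% of the 50-base windows of the Ighg2b coding part occurred unchanged in Ighg2c, against 0% of its 100-base windows. For the other pairs no 50-base window of the coding parts was shared. The longest identical run of Ighg2b and Ighg2c, 78 bases of exon 3, is shown with 10 bases on each side, the 3 differing bases in capitals.
Ighg2b, chr12:113306859-113306956, reverse strand: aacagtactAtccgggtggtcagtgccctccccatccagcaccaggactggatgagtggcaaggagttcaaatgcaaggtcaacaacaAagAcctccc
Ighg2c, chr12:113287859-113287956, reverse strand: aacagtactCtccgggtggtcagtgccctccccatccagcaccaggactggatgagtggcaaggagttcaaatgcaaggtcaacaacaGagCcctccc
A read that lies wholly inside such a run cannot be given to either gene, so the split between Ighg2b and Ighg2c is less certain than their sum. No other annotated gene overlaps 9 of the 10 genes. Igkc lies within the long noncoding RNA gene Gm30211 on the same strand, with 0 exonic bases shared.

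Reads assigned to genes were 52200285 to 68913793 in the TAA livers with the Nlrp3 deletion and 32096879 to 45900668 in the wild-type TAA livers, and 14353483 to 17157586 in the CCl4, oil and hepatocyte libraries. As a check of the labels, Sting1 (listed as Tmem173) was at 3.42, 1.98 and 5.28 FPKM in the livers labelled Sting knockout, against 6.10, 5.15 and 4.74 FPKM in wild-type CCl4 livers, so that 1 library labelled knockout lay within the wild-type range. In the TAA table Nlrp3 had 23, 105 and 83 counts with the deletion, against 36, 24 and 28 counts in wild type. Whole liver holds other Nlrp3-expressing cells, and the deposited values do not check a deletion limited to hepatocytes. Every liver here is bulk tissue, in which fewer cells of a type and less RNA per cell cannot be told apart. FPKM are fragments scaled to gene length and to a depth factor of each library, and so are levels per length. In the CCl4 table that factor did not follow the total of assigned reads alone, as given under the processing. A difference is given as log2 of (FPKM + 1) unless stated.

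In wild-type livers, CCl4 went with more antibody-gene RNA. IgG1, IgG2b and IgG2c constant-gene RNA and Cd79b were higher in CCl4 than in oil livers, and the 3 heavy-chain genes differed by 2.13 to 2.28 on the log2 scale. Igkc, the most abundant of the 10, was at 64.3, 115 and 355 FPKM in CCl4 livers and at 14.9, 19.1 and 30.1 FPKM in oil livers. It did not overlap between the groups, and its adjusted p of 0.0516 in limma lay just above the threshold. Of the 9 genes that entered the test (mean of at least 1 FPKM over the 9 livers), 4 were called higher and 0 lower, at a Benjamini-Hochberg adjusted p under 0.05 in limma. Among all 11511 genes tested, 9.19% were called higher. The groups did not overlap, with CCl4 above oil, for 8 of the 9, against 16.6% of all genes tested. The median difference of the 9 was 2.17, against -0.08 over all genes tested. The filter uses the mean over all 3 groups, so genes low in oil livers could enter it through the CCl4 livers. Ighg1, Ighg2b and Cd79a averaged 0.179, 0.884 and 0.796 FPKM in oil livers, below the filter. Ighg1 and Ighg2b are among the genes called, so these counts describe the genes only.

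**Figure D1:**
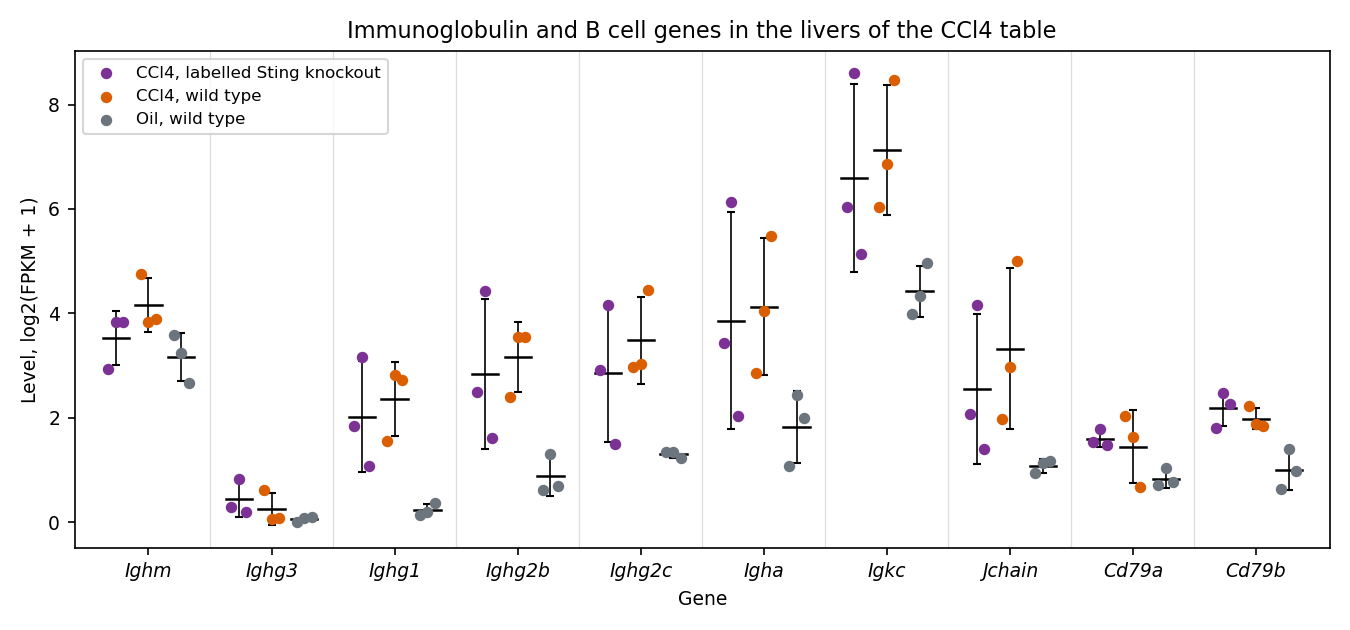
Level of each of the 10 genes, as log2(FPKM + 1), in the 9 livers of the CCl4 table: livers labelled Sting knockout and wild-type livers after CCl4, and wild-type livers after oil. Points are libraries in replicate order, the long line is the mean and the bar the SD (n = 3). For Ighg1 the oil livers lie at 0.101 to 0.289 FPKM and the CCl4 livers of both labels at 1.10 FPKM or more.

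The IgG genes were low in oil livers, at 1.56 FPKM or less. Ighg1 had 91, 301 and 270 reads in CCl4 livers, against 4, 5 and 8 reads in oil livers, or 4.54 ± 2.27 FPKM and 0.179 ± 0.0978 FPKM (SD, n = 3 each). The difference was 2.13 ± 0.48 on the log2 scale (SE, adjusted p = 0.0139, limma), which understates the 25.3-fold ratio of the means because 1 FPKM was added to each value. Ighg2b stood at 4.25, 10.7 and 10.7 FPKM in CCl4 livers and at 0.540, 1.48 and 0.629 FPKM in oil livers (log2 difference 2.28 ± 0.60, adjusted p = 0.027, limma). No CCl4 liver came within the oil range for either gene. Ighg2c was at 6.85, 7.15 and 20.8 FPKM in CCl4 livers and at 1.54, 1.56 and 1.34 FPKM in oil livers, a log2 difference of 2.17 ± 0.58 (adjusted p = 0.0293, limma). Its 3 oil livers were nearly equal, and the spread lay in CCl4 replicate 3. Ighg3 had 24, 2 and 3 reads in CCl4 livers and 0, 2 and 2 reads in oil livers, too few for the filter, and the groups overlapped (exact permutation p = 0.5, the smallest possible being 0.1, two-sided).

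Ighm, Igha, the light chain and the joining chain were on average higher after CCl4 without passing the test. Ighm was at 26.0, 13.3 and 13.9 FPKM in CCl4 livers and at 11.04, 8.47 and 5.36 FPKM in oil livers, with a log2 difference of 1.00 (95% interval 0.21 to 1.78, adjusted p = 0.0871, limma). Igha stood at 6.29, 15.4 and 43.8 FPKM in CCl4 livers and at 1.11, 4.38 and 2.98 FPKM in oil livers, a difference of 2.30 (0.25 to 4.34, adjusted p = 0.128, limma). Jchain, which marks cells that secrete polymeric antibody, was at 2.93, 6.89 and 31.0 FPKM in CCl4 livers and at 0.914, 1.18 and 1.26 FPKM in oil livers. All 3 genes were separated between the groups, with the lowest CCl4 liver above the highest oil liver. The Jchain difference was 2.24 (0.54 to 3.93, adjusted p = 0.0762, limma) and that of Igkc was 2.69 (0.87 to 4.52, adjusted p = 0.0516, limma).

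The receptor genes were lower in mean level than Ighm, Igha, Igkc and Jchain and differed less on the log2(FPKM + 1) scale. By ratio of mean FPKM, Cd79b (2.81) and Cd79a (2.43) differed more than Ighm (2.14). They differed less than Igha (7.74), Igkc (8.33) and Jchain (12.2) by that ratio. Cd79b was at 3.65, 2.71 and 2.59 FPKM in CCl4 livers and at 0.551, 1.66 and 0.982 FPKM in oil livers, a log2 difference of 0.98 ± 0.25 (SE, adjusted p = 0.0244, limma). Cd79a, its partner in the same heterodimer, was at 3.10, 2.12 and 0.591 FPKM in CCl4 livers and at 0.631, 1.05 and 0.707 FPKM in oil livers, so the groups overlapped (difference 0.61, interval -0.07 to 1.29, adjusted p = 0.226, limma). Within the 3 CCl4 livers Cd79a ran opposite to the secretion genes: replicate 3 had the least Cd79a and the most Igkc, Igha and Jchain, and replicate 1 the reverse. The ratio of Igkc to Cd79a FPKM was 20.8, 54.2 and 602 in CCl4 livers, and 23.7, 18.2 and 42.6 in oil livers. With n = 3 this order is a description of these libraries.

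The calls in this comparison rested on few libraries. Without oil replicate 1 limma called 0 of the genes, without oil replicate 3 it called 1, and without oil replicate 2 or CCl4 replicate 2 it called 2. It called 3 without CCl4 replicate 3 and 5 without CCl4 replicate 1. In these fits 5.81% to 8.25% of all genes were called higher. The genes called were not always among the 4 above. Cd79b lost its call without CCl4 replicate 1, and Ighg2b and Ighg2c lost theirs without CCl4 replicate 3, while other members were called. Counting the reads recovered from the FPKM with edgeR called 6, the 4 above with Igkc and Jchain, where 13.2% of all genes were called higher, and testing every gene without a filter on level called 0.

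**Figure D2:**
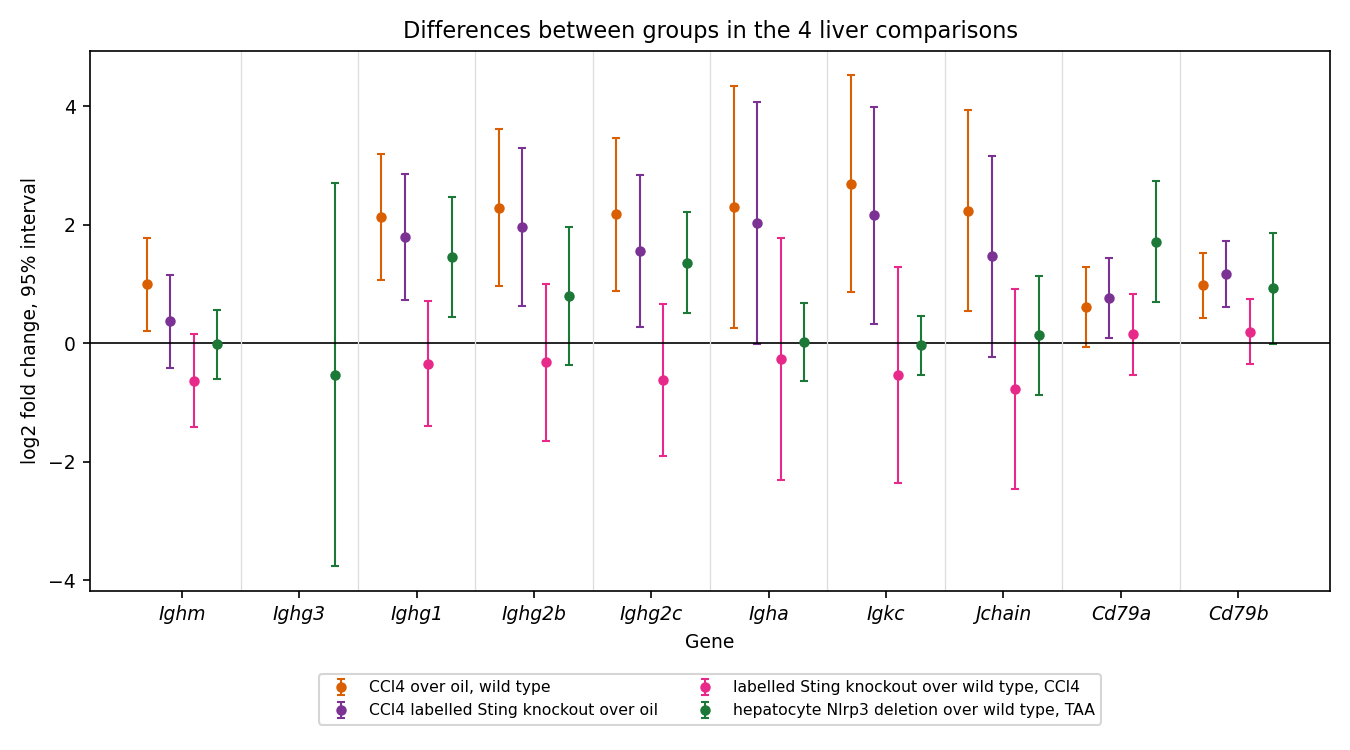
Difference of each gene in the 4 liver comparisons as a log2 fold change with its 95% interval, from limma on log2(FPKM + 1) for the CCl4 table and from edgeR on counts for the TAA table. Ighg3 was tested in TAA livers and lay below the filter in the CCl4 table. The comparisons over oil and over wild-type CCl4 share groups, so their points are not independent.

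Between livers labelled Sting knockout and wild-type CCl4 livers, none of the 9 genes tested was called. Of the 9 tested, 0 were called higher and 0 lower in limma, as 0% of all genes were called higher and 0% lower; 0 of the 9 had an unadjusted p under 0.05, against 3.18% of all genes, and edgeR on the recovered reads also called 0. The median difference of the 9 was -0.34, against 0.02 over all genes tested. Igkc was at 64.4, 386 and 34.0 FPKM in the livers labelled knockout and at 64.3, 115 and 355 FPKM in wild-type CCl4 livers. Each group held 1 liver above 350 FPKM, and the log2 difference was -0.54 with an interval of -2.36 to 1.29, wide enough to hold a large change either way.

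The same library led for most secretion genes. Replicate 2 of the livers labelled knockout had the most Igha, 9.82, 68.9 and 3.08 FPKM by replicate, against 6.29, 15.4 and 43.8 FPKM in wild-type CCl4 livers (difference -0.27, interval -2.31 to 1.78). Jchain was at 3.22, 16.9 and 1.64 FPKM in the livers labelled knockout and at 2.93, 6.89 and 31.0 FPKM in wild-type CCl4 livers (-0.77, -2.47 to 0.92). Igkc, Igha, Jchain, Ighg1, Ighg2b and Ighg2c were all highest in replicate 2 and lowest in replicate 3 among the livers labelled knockout. Ighg1 was at 2.59, 7.93 and 1.10 FPKM in them, against 1.93, 6.09 and 5.60 FPKM in wild-type CCl4 livers (-0.34, -1.40 to 0.72). The ranges of Ighg2b, 2.05 to 20.5 FPKM in the livers labelled knockout and 4.25 to 10.7 FPKM in wild-type CCl4 livers, were nested, and those of Ighg2c overlapped, 1.83 to 16.9 FPKM against 6.85 to 20.8 FPKM.

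The B cell receptor genes were more even. Cd79a was at 1.91, 2.44 and 1.77 FPKM in the livers labelled knockout, against 3.10, 2.12 and 0.591 FPKM in wild-type CCl4 livers (log2 difference 0.15, interval -0.53 to 0.83, adjusted p = 0.873, limma). Cd79b was at 2.51, 4.54 and 3.79 FPKM in the livers labelled knockout and at 3.65, 2.71 and 2.59 FPKM in wild-type CCl4 livers (0.20, -0.36 to 0.75, adjusted p = 0.801, limma). Ighm, at 6.67, 13.3 and 13.2 FPKM against 26.0, 13.3 and 13.9 FPKM in wild-type CCl4 livers, had the smallest adjusted p of the 9, 0.761 in limma (difference -0.63, interval -1.41 to 0.16). In FPKM it was the 1 gene of the 9 whose groups did not overlap with the livers labelled knockout lower, as for 2.78% of all genes tested, by 13.2788 FPKM in the highest of them against 13.2832 FPKM in the lowest wild-type CCl4 liver. Scaled to library totals as CPM, Ighm was at 13.1, 20.6 and 30.4 in the livers labelled knockout and at 53.4, 29.2 and 30.5 in wild-type CCl4 livers, and the groups overlapped. Ighg3 had 10, 25 and 7 reads in the livers labelled knockout and 24, 2 and 3 reads in wild-type CCl4 livers, which overlapped, and was not tested in limma. Red cell genes moved with the label: their summed level was 1893 to 3051 FPKM in the livers labelled knockout and 271 to 1094 FPKM in wild-type CCl4 livers. Hepatocyte genes summed to 39844 to 96584 FPKM and 37878 to 55676 FPKM in the same groups. The part of either in the B cell values was not tested.

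Against oil livers, the livers labelled Sting knockout had 2 genes called higher and 0 lower, Cd79b (log2 difference 1.17 ± 0.25, SE, adjusted p = 0.0116, limma) and Ighg1 (1.79 ± 0.48, adjusted p = 0.0325, limma), while 8% of all genes were called higher. The oil livers are those of the comparison above, so the results share them. The groups did not overlap, with the livers labelled knockout above oil, for 7 of the 9 genes, against 17.8% of all genes, and the median difference was 1.55, against -0.04 over all genes tested. Ighm and Igha overlapped. Ighg3, below the filter, had 10, 25 and 7 reads in the livers labelled knockout and 0, 2 and 2 reads in oil livers (exact permutation p = 0.1, the smallest possible). Ighg2b lay at an adjusted p of 0.054 in limma (difference 1.96 ± 0.60), and edgeR on recovered reads called 6 genes, adding Ighg2b, Ighg2c, Igkc and Igha, where 11.4% of all genes were called higher. Without oil replicate 1 limma called 0, without replicate 1 or 2 of the livers labelled knockout or oil replicate 2 or 3 it called 1, and without replicate 3 of the livers labelled knockout it called 4, while 4.69% to 7.72% of all genes were called higher.

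In the TAA table none of the 10 genes passed the test between livers with the Nlrp3 deletion and wild type, and the IgG and receptor genes came closest. In edgeR's quasi-likelihood test on counts, 0 of the 10 were called, while 1.37% of the 18619 genes tested were called higher. At an unadjusted p under 0.05 there were 3 of 10, against 28.9% of all genes. DESeq2 called 3 genes, Cd79a, Ighg2c and Ighg1, and 11.4% of all genes higher. With limma on FPKM 3 were called, Ighg2c, Ighg1 and Cd79b, and 21.7% of all genes higher. Calls over all genes in this comparison depended on single libraries and settings: 255 were called higher, against 1 with RLE scaling factors, 2 with the replicate block, 0 to 6 without any 1 library other than deletion replicate 1, and 3570 without that library. The groups did not overlap, with the deletion higher, for 4 genes, against 17.5% of all genes tested. The median log2 fold change of the 10 was 0.46, against -0.04 over all genes tested.

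**Figure D3:**
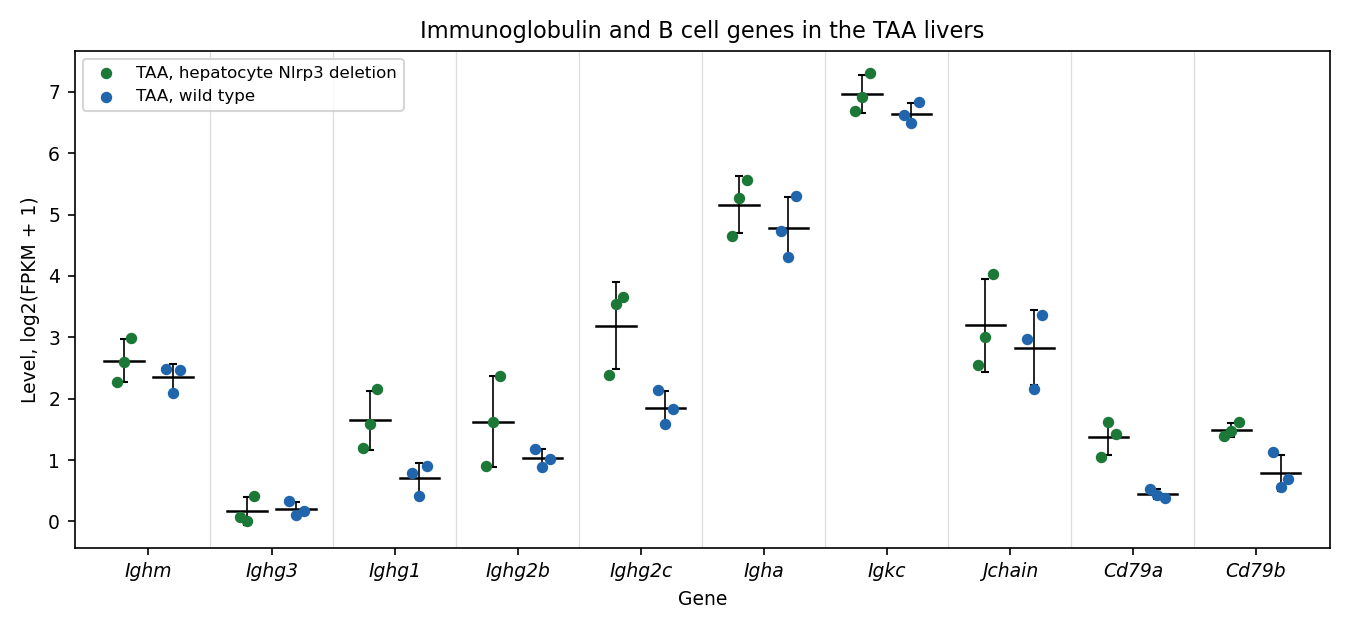
Level of each of the 10 genes, as log2(FPKM + 1), in the 3 TAA livers with the hepatocyte Nlrp3 deletion and the 3 wild-type TAA livers. Points are libraries in replicate order, the long line is the mean and the bar the SD (n = 3). Cd79a, Cd79b, Ighg1 and Ighg2c do not overlap between the groups, and the other 6 do.

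Cd79a had 103, 212 and 203 counts in livers with the deletion, against 38, 27 and 18 counts in wild-type TAA livers, or 1.62 ± 0.51 and 0.367 ± 0.0764 FPKM (SD, n = 3 each). Its log2 fold change was 1.71 ± 0.44 (SE, adjusted p = 0.0641, edgeR). Cd79b had 150, 179 and 244 counts with the deletion and 95, 36 and 35 counts in wild type (0.93 ± 0.41, adjusted p = 0.176, edgeR). Every deletion liver lay above every wild-type liver for both chains of the receptor dimer. Ighg2c had 363, 977 and 1272 counts with the deletion and 253, 140 and 134 counts in wild type (1.36 ± 0.37, adjusted p = 0.0691, edgeR). Ighg1 had 217, 364 and 740 counts with the deletion and 107, 47 and 90 counts in wild type (1.45 ± 0.44, adjusted p = 0.0836, edgeR). For these IgG genes replicate 1 of the deletion livers was the nearest to wild type. Leaving it out, edgeR called 4 of the 10, Ighg1, Ighg2b, Ighg2c and Cd79a, as 17.9% of all genes were called higher and 20% lower. Leaving out any other library called 0 of the 10 and at most 6 genes higher in the whole table.

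The more abundant chains had log2 fold changes near 0. Igkc had 3520, 4428 and 6875 counts with the deletion and 2896, 2485 and 2369 counts in wild type, which after scaling for library size gave a log2 fold change of -0.04 (95% interval -0.53 to 0.45, adjusted p = 0.926, edgeR). Igha had 4169, 6955 and 10157 counts with the deletion and 3830, 2636 and 4062 counts in wild type (0.02, -0.64 to 0.68, adjusted p = 0.972, edgeR). Both intervals lay below a log2 fold change of 1. Ighm, with 472, 661 and 1080 counts against 485, 327 and 339 counts in wild type, had a log2 fold change of -0.02 (-0.60 to 0.57). The signs of Igkc and Ighm were not stable: limma on FPKM, where the median of all genes was 0.33, gave 0.33 for Igkc and 0.27 for Ighm. Jchain had 796, 1225 and 3170 counts with the deletion and 974, 461 and 919 counts in wild type (0.13, -0.87 to 1.13). Ighg2b had 150, 384 and 921 counts with the deletion and 190, 120 and 109 counts in wild type (0.80, -0.37 to 1.96), its replicate 1 lying within the wild-type range. Ighg3, at 8, 0 and 71 counts against 37, 9 and 13 counts in wild type, was too sparse to place (-0.53, -3.76 to 2.70). Hepatocyte genes moved with the groups: they summed to 25273 to 31967 FPKM with the deletion and 9315 to 10193 FPKM in wild type, and their part in these values was not tested.

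The IgG share of heavy-chain RNA differed between CCl4 and oil livers. Of the summed FPKM of all heavy-chain constant genes, the 4 IgG genes made up 43.1%, 35.2% and 21.4% in livers labelled Sting knockout, 28.2%, 43.9% and 38.2% in wild-type CCl4 livers and 14.5%, 18.7% and 18.7% in oil livers. The wild-type CCl4 livers and the livers labelled knockout were each wholly above the oil livers, and no test was run on these shares. Ighm was the main class in oil livers, at 73.5%, 48.7% and 43.1%. It held 53.9%, 24.3% and 14.3% in wild-type CCl4 livers and 20.5%, 10.2% and 55.2% in livers labelled knockout. The Ighm shares of both CCl4 groups overlapped those of oil livers. In the TAA livers, which come from another table, Igha was the largest class, at 67.6%, 64.6% and 62.6% with the deletion and 68.8%, 70.9% and 79.0% in wild type. There the IgG share was 18.0%, 25.3% and 26.6% with the deletion and 15.2%, 12.3% and 9.39% in wild type. The tables differ in annotation and normalization, so shares are not compared between them.

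**Figure D4:**
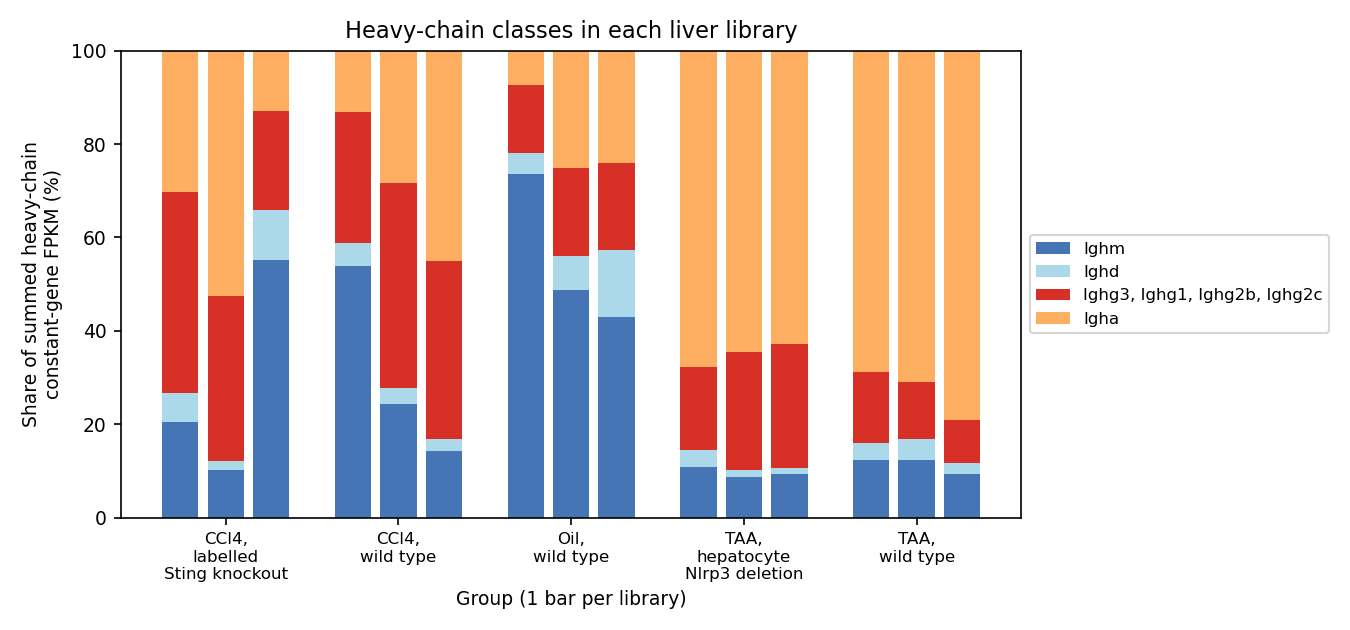
Share of the summed FPKM of the heavy-chain constant genes that each class took in every liver library (1 bar per library, in replicate order). Ighe, at most 0.112%, is too small to see. IgG genes took 14.5% to 18.7% in oil livers, and Igha took 62.6% or more in all 6 TAA livers.

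Among the IgG genes of the CCl4 table Ighg2c and Ighg2b together held the larger share, and the Ighg1 share of every CCl4 liver lay above that of every oil liver. Ighg1 took 18.5%, 17.2% and 21.4% of IgG FPKM in livers labelled knockout, 14.2%, 25.4% and 15.1% in wild-type CCl4 livers and 4.66%, 4.54% and 12.4% in oil livers. The oil shares rest on 4, 5 and 8 Ighg1 reads, and the order of the shares was not tested. Ighg2c took 46.7%, 36.7% and 35.8% in livers labelled knockout, 50.5%, 29.8% and 55.9% in wild-type CCl4 livers and 70.6%, 47.9% and 57.5% in oil livers. In the TAA livers Ighg2c was the largest of the 4, at 59.3% to 72.2% with the deletion and 55.9% to 61.2% in wild type. Laboratory mouse strains differ in whether they carry Ighg2c or Ighg2a at this place, and the strain is not given. Ighd, which naive B cells express with Ighm, was at 1.98 to 2.60 FPKM in livers labelled knockout, 1.88 to 2.38 FPKM in wild-type CCl4 livers and 0.692 to 1.77 FPKM in oil livers, and was not called (adjusted p = 0.126 for wild-type CCl4 over oil, limma). Ighe, for IgE, had at most 2 reads in any liver of the CCl4 table. The lambda constant genes Iglc1, Iglc2 and Iglc3 were not called in any liver comparison. Kappa took 85.0% to 92.6% of light-chain constant FPKM in livers labelled knockout, 88.1% to 97.0% in wild-type CCl4 livers and 78.9% to 92.7% in oil livers. Iglc1 reached 34.6 FPKM in replicate 2 of the livers labelled knockout, against 2.55 and 3.64 FPKM in the other 2.

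The variable segments, which encode the antigen-binding end, give a view that the 10 constant and receptor genes do not. Among the CCl4 and oil livers 530, 597 and 347 reads fell on heavy, kappa and lambda V segments in livers labelled knockout, 646, 962 and 2000 in wild-type CCl4 livers and 103, 172 and 112 in oil livers. They were spread over 94, 71 and 99 segments in livers labelled knockout, 121, 131 and 134 in wild-type CCl4 livers and 43, 58 and 48 in oil livers. No single segment held more than 9.88% of the V reads of any of these livers. More reads find more segments: with each library thinned to 103 V reads, 46.7, 43.9 and 55.1 segments were expected in livers labelled knockout, 59.8, 54.5 and 51.1 in wild-type CCl4 livers and 43.0, 46.6 and 46.0 in oil livers. Replicate 2 of the livers labelled knockout, with the most Igkc reads of its group, had the fewest kappa V reads per Igkc read of the 9 livers, 0.142 against 0.499 and 0.546 in the other 2 of its group.

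In the TAA table the V reads split the deletion livers. Replicates 1, 2 and 3 with the deletion had 299, 3364 and 7718 V reads on 25, 117 and 163 segments, against 269, 211 and 229 V reads on 32, 32 and 33 segments in wild type. Kappa V reads per Igkc read were 0.0577, 0.449 and 0.700 with the deletion and 0.0594, 0.0503 and 0.0498 in wild type. Thus for kappa replicate 1 of the deletion livers lay within the wild-type range and replicates 2 and 3 far above it. Heavy V reads per heavy-chain constant read were 0.00542, 0.126 and 0.170 with the deletion and 0.0151, 0.0112 and 0.0139 in wild type. By that ratio replicate 1 lay below the wild-type range and replicates 2 and 3 above it. The tables list different V segments, 348 in the CCl4 table and 193 here, so these ratios are compared within a table only. Thinned to 211 reads, 24.4, 79.4 and 85.0 segments were expected with the deletion and 31.9, 32.0 and 32.8 in wild type. Genes with at least 1 read numbered 23388, 22297 and 21579 with the deletion and 24984, 24202 and 25639 in wild type. The 4 libraries with few V reads had 2369 to 3520 Igkc counts, and the cause was not tested.

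**Figure D5:**
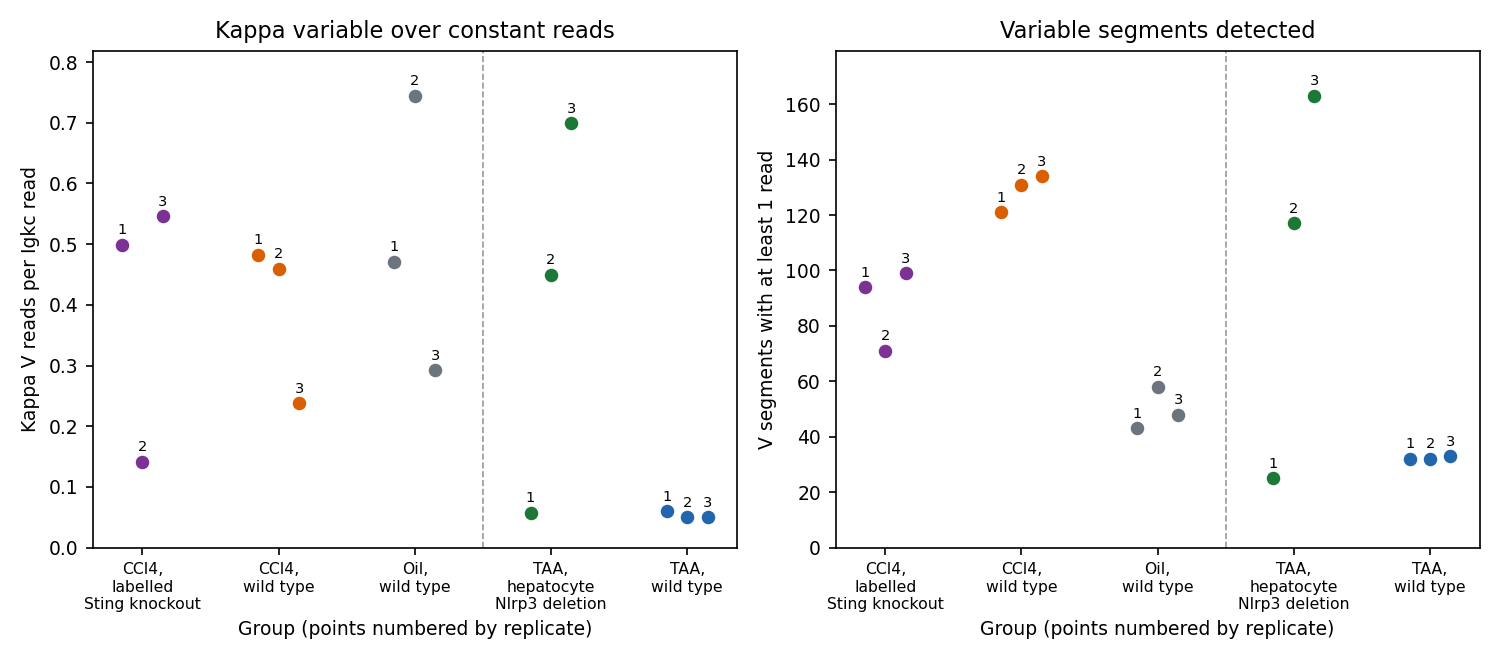
Kappa V reads per read on Igkc (left) and number of V segments with at least 1 read (right) in every liver library, numbered by replicate. The dashed line separates the tables. In the TAA livers replicate 1 with the deletion and the 3 wild-type livers lie at 0.0498 to 0.0594 kappa V reads per Igkc read, and the other 2 deletion livers at 0.449 and 0.700.

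Other genes of B cells and plasma cells were read from lists. Of 29 naive and mature B cell genes, 9 reached a mean of 1 FPKM in the CCl4 table and 7 of them were called higher in wild-type CCl4 than in oil livers (limma), with a list median of 1.25 on the log2 scale against -0.08 over all genes tested and a share called higher of 9.19%. The 4 with the smallest p were Ly6d, Cd72, Cd83 and Btk. The filter on the mean over all groups applied to each list here, so genes low in oil livers could enter through the CCl4 livers. Ly6d, a small surface protein, led at 65.1, 41.8 and 62.7 FPKM in CCl4 livers and 1.77, 1.13 and 2.14 FPKM in oil livers, and it is not limited to B cells. Btk, Cd83, Syk and Plcg2 also serve macrophages and dendritic cells. Ms4a1, which encodes the B cell surface protein CD20, was low, at 0.313 to 0.713 FPKM in CCl4 livers and 0.159 to 0.318 FPKM in oil livers. In edgeR on recovered reads, where 13.2% of all genes were called higher, all 29 could be tested and 13 were called, Cd22 and Spib among them, while Ms4a1 was not (adjusted p = 0.137, edgeR).

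Plasma cell genes gave fewer calls. Of 16 tested, 4 were called higher in wild-type CCl4 than in oil livers (list median 0.61), against 9.19% of all genes. They were Cxcr4, a homing receptor, Slamf7, and Derl3 and Creld2, which act in the endoplasmic reticulum. Which cells of the liver held the RNA of these 4 genes was not tested. In edgeR on recovered reads 6 of 20 were called higher, adding Prdm1 and Irf4, where 13.2% of all genes were called higher. Derl3 was at 2.37, 5.89 and 2.89 FPKM in CCl4 livers and 0.429, 0.0767 and 0.235 FPKM in oil livers (log2 difference 1.86, adjusted p = 0.00292, limma). Mzb1, a plasma cell chaperone of IgM assembly, was at 1.09, 1.33 and 2.08 FPKM in CCl4 livers and 0.290, 0.253 and 0.517 FPKM in oil livers (0.87, adjusted p = 0.0759, limma). Xbp1 and Sdc1, which hepatocytes also express strongly, were not called. Tnfrsf17, which encodes the plasma cell receptor BCMA, had no more than 2 reads in any of the 9 livers. In the livers labelled Sting knockout 6 of 9 naive and mature B cell genes and 5 of 16 plasma cell genes were called higher than in oil, against 8% of all genes. The 4 with the smallest p were Ly6d, Cd83, Cd72 and Btk among the B cell genes and Cxcr4, Derl3, Creld2 and Fkbp11 among the plasma cell genes. None of either list was called against wild-type CCl4 livers. Without any 1 library Ly6d, Cd72, Cd83, Cxcr4 and Derl3 stayed called in wild-type CCl4 livers and in livers labelled knockout, each over oil, whereas Creld2 lost its call in 4 of 6 such fits in each. For livers labelled knockout over oil, Btk lost its call in 5 of 6 such fits and Fkbp11 in 3 of 6. Of the TAA livers' genes, 0 of 29 B cell genes were called and 1 of 21 plasma cell genes, Sdc1 (log2 fold change 1.16, adjusted p = 0.0487, edgeR), the proteoglycan that hepatocytes share, where 1.37% of all genes were called higher.

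Of 8 receptors for antibody and their chains that were tested, 4 were called higher and 1 lower in wild-type CCl4 than in oil livers (list median 1.18). Over all genes 9.19% were called higher and 6.15% lower. In wild-type CCl4 livers the IgG Fc receptors Fcgr3, Fcgr1 and Fcgr4 and their signalling chain Fcer1g rose, and the 3 receptors and the chain differed by 1.94 to 2.37 on the log2 scale, though Fcgr4 lost its call without any 1 of the 3 oil libraries. The inhibitory IgG receptor Fcgr2b was not called (0.15, adjusted p = 0.764, limma). Pigr fell: it was at 248, 183 and 213 FPKM in CCl4 livers and 435, 518 and 545 FPKM in oil livers (-1.22 ± 0.28, SE, adjusted p = 0.0148, limma). The groups did not overlap, but the call was lost in 3 of 6 fits without 1 library (CCl4 replicate 2, oil replicate 2 or oil replicate 3), with an adjusted p of up to 0.0713, limma. In the livers labelled Sting knockout Pigr was at 218, 166 and 184 FPKM, also lower than in oil livers (-1.39, adjusted p = 0.00836, limma), and was not called against wild-type CCl4 livers (-0.18, adjusted p = 0.832, limma). Fcer1g, Fcgr3 and Fcgr1 were called higher in the livers labelled knockout than in oil livers, where 8% of all genes were called higher. Fcgr1 lost that call in 2 of 6 fits without 1 library. In the TAA table Pigr was higher with the Nlrp3 deletion, 39.76, 66.55 and 89.17 FPKM, against 12.58, 12.35 and 8.94 FPKM in wild type (log2 fold change 2.12 ± 0.34, adjusted p = 0.0487, edgeR). Fcgrt, the neonatal Fc receptor that recycles IgG, was higher there as well (1.09 ± 0.19, adjusted p = 0.0487, edgeR). The calls of Pigr, Fcgrt, Sdc1 and Cxcl12 in TAA livers were at the edge of the threshold: the adjusted p of Pigr was 0.0506 with RLE factors, 0.0802 with the replicate block and 0.0965 to 0.196 without any 1 library other than deletion replicate 1 (edgeR), and the other 3 lost their calls in the same fits. Fcgrt and Pigr are expressed by hepatocytes or bile duct cells of the mouse liver, and the hepatocyte list above was higher in the same libraries.

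Of 5 tested genes for B cell attraction and survival, Cxcr4 and Tgfb1 were called higher in wild-type CCl4 than in oil livers. The share of all genes called higher was 9.19%, and Tgfb1 lost its call in 5 of 6 fits without 1 library. Cxcl13, the chemokine that draws B cells into follicles, was at 23.5, 0.273 and 13.3 FPKM in CCl4 livers and 2.86, 3.72 and 2.36 FPKM in oil livers, so it was both above and below oil. Cxcl12, which retains plasma cells, was called higher with the Nlrp3 deletion in TAA livers (1.55 ± 0.24, adjusted p = 0.0487, edgeR), a call as close to the threshold as that of Pigr. Of 8 germinal centre and class switch genes tested, only Ung was called higher in wild-type CCl4 than in oil livers (0.97, adjusted p = 0.035, limma), a share near the 9.19% of all genes, and it lost its call in 4 of 6 fits without 1 library. In livers labelled Sting knockout Cxcr4, Ltb, Tgfb1 and Ung were called higher than in oil, where 8% of all genes were called higher. Of 6 fits without 1 library, Tgfb1 lost that call in 6, Ltb and Ung in 5 each and Cxcr4 in 0. In TAA livers 0 of 11 germinal centre genes were called.

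Macrophage and neutrophil markers moved with CCl4 too. Between wild-type CCl4 and oil livers 12 of 15 macrophage genes and 6 of 7 neutrophil genes were called higher, against 9.19% of all genes. Their medians were 1.80 and 1.80. Those with the smallest p were Gpnmb, Cd68, Trem2 and Lyz2 of the macrophage list and Csf3r, Retnlg, S100a9 and S100a8 of the neutrophil list. Of 7 T and NK cell genes 1 was called, Klrd1, against 9.19% of all genes. In edgeR on recovered reads 4 of 16 were called, Cd8a, Klrd1, Nkg7 and Cd8b1 (median 1.63), where 13.2% of all genes were called higher. Macrophage genes summed to 1545 to 2078 FPKM in CCl4 livers and 347 to 489 FPKM in oil livers, and neutrophil genes to 69.4 to 147 FPKM and 6.18 to 17.6 FPKM. T and NK genes summed to 9.60 to 61.5 FPKM in CCl4 livers and 7.26 to 8.76 FPKM in oil livers. None of 9 hepatocyte genes was called, and 1 of 5 red cell genes, Alas2, was called lower, against 6.15% of all genes. Plasmacytoid dendritic genes, which overlap with B cell programmes, gave 0 of 1 tested. Between livers labelled Sting knockout and oil, 9 of 15 macrophage, 6 of 7 neutrophil and 1 of 7 T and NK genes were called higher, led by Gpnmb, Trem2, Cd68 and Ccr2, by Retnlg, S100a9, S100a8 and Csf3r, and by Klrd1, and so were the red cell genes Hba-a2 and Hbb-bs, while the hepatocyte gene Tat was lower. Over all genes 8% were called higher and 5.91% lower in that comparison. In fits without 1 library Hbb-bs lost that call in 6 of 6, Tat in 4 of 6 and Hba-a2 in 3 of 6. Between livers labelled knockout and wild-type CCl4, 0 genes of any list were called. In the TAA livers the macrophage, neutrophil, T and NK, plasmacytoid dendritic and red cell lists held 0 called genes, and the hepatocyte list held 2 called higher, Fgb and Serpina1a, which lost their calls in the same fits as Pigr. There 1.37% of all genes were called higher. How far these cells contribute to the shared genes of the B cell list was not tested.

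Across the 9 livers of the CCl4 table the 10 genes differed in how closely they followed Jchain. By Pearson correlation of log2(FPKM + 1), Jchain was closest to Igkc (r = 0.97), Igha (0.95) and Ighg2c (0.95), and less close to Cd79b (0.55), Ighm (0.35) and Cd79a (0.12). Cd79a was closest to Cd79b (0.78) among the members above the filter. Over the 6 TAA livers the order was another one: Jchain was closest to Ighm (0.95), Igha (0.92) and Igkc (0.91), and Cd79a to Ighg2c (0.95), Cd79b (0.90) and Ighg1 (0.87). Outside the immunoglobulin genes the 5 protein-coding genes most like Jchain, of 11782 with a mean of at least 0.5 FPKM, were Sfrp1 (0.96), Tmem251 (0.94), Hnrnpa2b1 (0.93), Ska1 (0.93) and Mzb1 (0.93). Those most like Cd79a were Rhog (0.98), Klf2 (0.96), Slc26a10 (0.96), H1fx (0.96) and Def6 (0.95). In the TAA livers the genes most like Jchain were Mgme1 (0.99), AW549877, Cwf19l2, Rerg and Poc5 (0.98 each), and those most like Cd79a were Mpdu1, Clmn, Atf6b, Oard1 and Rexo2 (1.00 each). Neither list of 5 shares a gene between the tables. The points share treatment group and library depth, so these are descriptions of likeness without a test.

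Primary hepatocytes carried next to none of this RNA. Igkc was at 1.16, 0.528 and 0.530 FPKM with MCC950 and at 0.127, 0 and 0.571 FPKM without it, from 11, 5 and 5 reads and 1, 0 and 5 reads. Ighg3 had no read in any of the 6 libraries. Igha had 8, 13 and 5 reads with MCC950 and 7, 7 and 6 reads without it, and the other genes had 7 reads or fewer in every library. None of the 10 reached a mean of 1 FPKM, so none entered limma, and exact permutation tests gave p of 0.3 or more (two-sided, smallest possible 0.1). A count of 0 in these libraries allows up to 3 reads, and this limit covers counting error only.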

How the data were processed

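RNA-seq was analysed from 21 mouse libraries in 7 groups of 3. Per the submitters' processing notes, HISAT2 2.2.1, featureCounts 1.5.0-p3 and the mm10 build were named, with no order or role, and neither strandedness nor read length is stated there. For the CCl4 and hepatocyte tables the authors deposited FPKM, and for the TAA table the authors deposited counts together with FPKM. Among the values of the FPKM tables, 100% were whole multiples of 1 read within 0.05, so read numbers were recovered for depths, V segments and an alternative test. FPKM times gene length in kb summed to 822718 to 1215060 in livers labelled Sting knockout, 857315 to 916803 in wild-type CCl4 livers and 1096240 to 1344060 in oil livers, so FPKM and reads per library total can order libraries differently.

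Tests were run on each table separately in R 4.3.3. FPKM were tested with limma 3.58.1 (trend) on log2(FPKM + 1), for genes whose average reached 1 FPKM. The 9 CCl4 and oil livers entered 1 fit. TAA counts were tested with edgeR 4.0.16 (quasi-likelihood, TMM scaling, filterByExpr), with DESeq2 1.42.0 as an alternative. All p-values are two-sided and Benjamini-Hochberg adjusted over all genes tested, with a threshold of 0.05. Genes below the filter were given exact permutation tests. The scripts were tested on simulated data with known changes. No column of per-sample values was left unmapped.

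The 10 genes and the 11 gene lists were chosen with earlier results of these data known. All called genes of a list are named, or the 4 with the smallest p where more than 4 were called. For likeness, 5 genes were named among those averaging 0.5 FPKM or more. Same-numbered libraries deviated together in wild-type CCl4 against oil livers (correlations 0.225, 0.319 and 0.516) and in livers labelled Sting knockout against wild-type CCl4 (0.189, 0.176 and 0.120), a pairing seen in the data and stated by no label. Correlations were also positive for livers labelled knockout against oil (0.0223 to 0.179) and for hepatocytes (0.0850 to 0.218). Sequences were read from GENCODE M21 transcripts, with mm10 coordinates from its annotation. The IgG genes were compared over the coding part of a single transcript each, and their other exons and untranslated parts were not compared. The alternatives were other pseudocounts, filters, scalings and tests, a replicate block, and leaving out each library. Some genes of the lists are not reported here by name.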

Additional observations from a re-analysis of the deposited data

How the results depend on the processing

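The 3 livers a group limit the precision, and genes near 1 FPKM rest on few reads. The cause of each change below was not tested, except that leaving out a library removes a sample. For wild-type CCl4 over oil livers, 4 genes were called higher, as were 9.19% of all genes. Testing all genes without a filter called 0, while 3.66% of all genes were called higher. Rescaling to TPM, which moved the median of all genes to 0.49 from -0.08, called 8, while 17.1% of all genes were called higher. Leaving out 1 library called 0 to 5, while 5.81% to 8.25% of all genes were called higher. For the livers labelled Sting knockout over oil, 2 were called, against 6 with edgeR on recovered reads. A mean of at least 5 FPKM called 0 and no filter called 1. Quantile normalization called 1, TPM (median of all genes 0.26) called 5, and leaving out 1 library called 0 to 4. In the same order, the shares of all genes called higher were 8%, 11.4%, 5.93%, 2.61%, 6.77%, 10.4% and 4.69% to 7.72%. For the Nlrp3 deletion in TAA livers 0 were called, against 3 with DESeq2, 3 with limma on FPKM, 1 without a filter and 0 to 4 without 1 library. The matching shares of all genes called higher were 1.37%, 11.4%, 21.7%, 3.4% and 0% to 17.9%. No other alternative moved these counts by more than 1.5 times, and no gene was called lower under any.

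With the replicate block, 4 genes were called for wild-type CCl4 over oil, 0 for livers labelled knockout against wild-type CCl4, 3 for livers labelled knockout over oil (Ighg2b added, 1.96, adjusted p = 0.0259, limma) and 0 in TAA livers. The shares of all genes called higher were 10.3%, 0%, 9.63% and 0.0107% in the same order. In TAA livers the pairing ended the calls of Pigr, Fcgrt, Cxcl12, Sdc1, Fgb and Serpina1a (adjusted p = 0.0802 for each, edgeR), and over all genes 2 calls higher were left of 255. For wild-type CCl4 over oil it ended that of Ngp, and it ended no other call of a named gene. Correlations of same-numbered libraries were also positive for livers labelled knockout with oil (0.0223, 0.179 and 0.0929) and for hepatocytes (0.179, 0.218 and 0.0850). In TAA livers they were 0.104, -0.0329 and 0.00870.

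Signs of small uncalled differences changed. For livers labelled knockout over wild-type CCl4, edgeR on recovered reads gave 0.0784 for Ighg2b and 0.322 for Igha, and TPM gave -9.5e-05 for Cd79a and -0.0432 for Cd79b (median of all genes -0.24). Leaving out 1 library gave -0.91 to 0.14 for Ighg1, -1.11 to 0.30 for Ighg2b, -1.27 to 0.058 for Ighg2c, -1.40 to 0.65 for Igha, -1.54 to 0.19 for Igkc, -1.58 to 0.071 for Jchain and -0.24 to 0.44 for Cd79a. In TAA livers it gave -0.25 to 0.14 for Ighm, -0.21 to 0.064 for Igkc, -2.83 to 0.063 for Ighg3, -0.19 to 0.28 for Igha and -0.46 to 0.43 for Jchain. There limma on FPKM gave 0.273 for Ighm and 0.325 for Igkc, no filter 0.0253 and 0.0042, and removal of mitochondrial, rRNA and pseudogene counts 0.0126 for Ighm. In hepatocytes all 10 genes lay below the filter, so alternatives had no value to be compared with.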
